A study of Mus musculus with 14 samples.

Results

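Notch1, Notch2, Notch3, Jag1, Jag2, Hes1, Hey1, Rbpj and Maml1 are 9 genes of the Notch pathway, out of 21887 protein-coding mouse genes. They were chosen by name, and each was read over its annotated body with 5 kb on each side, called its window here. In those windows, the regions enriched for LSD1 and for the histone H3 marks H3K4me2 and H3K4me1 were compared between livers of YAP transgenic mice and livers of wild-type (WT) mice. LSD1, encoded by Kdm1a, is a demethylase that removes methyl groups from H3K4me2 and H3K4me1. The YAP group expressed YAP, the co-activator restrained by the Hippo pathway, from a transgene induced with doxycycline at 50 mg/L in the drinking water for 10 days. Both genotypes were C57BL/6, and the labels carry the doxycycline protocol on every sample without saying whether WT mice drank it. The sources used here do not give the driver of the transgene or the age and sex of the mice.

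For each genotype and antibody there were 2 replicate libraries, and the deposited list of enriched regions is 1 for the pair. No spread between replicates can be computed from such lists, so the values below are descriptions with no test, and the depth of the libraries is unknown. The lists held 2949 LSD1 regions in YAP and 1500 in WT after overlapping entries were merged, 51676 H3K4me2 regions in YAP and 54219 in WT, and 6274 H3K4me1 regions in YAP and 5905 in WT. Positions are on mm10.

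Notch receptors sit in the plasma membrane and bind Jagged or Delta-like ligands on neighbouring cells. Binding lets proteases release the intracellular part of the receptor, which enters the nucleus, joins the DNA-binding protein RBPJ and a Mastermind co-activator, and turns on repressor genes of the HES and HEY families. In liver the pathway is best known for directing progenitor cells towards bile duct fate, and YAP is known to act upstream of it in hepatocytes. H3K4me2 marks promoters and enhancers, and H3K4me1 is the more typical mark of enhancers.

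LSD1 was listed at 2 of the 9 genes in YAP livers, the receptor gene Notch2 and the gene of the DNA-binding factor Rbpj, and at 0 of 9 in WT livers. H3K4me2 was listed at 8 of the 9 genes in both genotypes, over 50.8 kb in YAP and 49.1 kb in WT. Of this, 42.5 kb was common to both, which is 83.7% of the YAP length and 86.6% of the WT length. The common share over the whole lists is not given here. Notch2 had the largest difference among them, with 12.1 kb of H3K4me2 in YAP and 9.23 kb in WT. The H3K4me1 list held 12 regions at Notch1, Notch2 and Jag1 for YAP, against 2 regions, both at Notch2, for WT. The chromatin came from whole liver, so more cells carrying a mark and more of the mark per cell cannot be told apart.

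**Figure D1:**
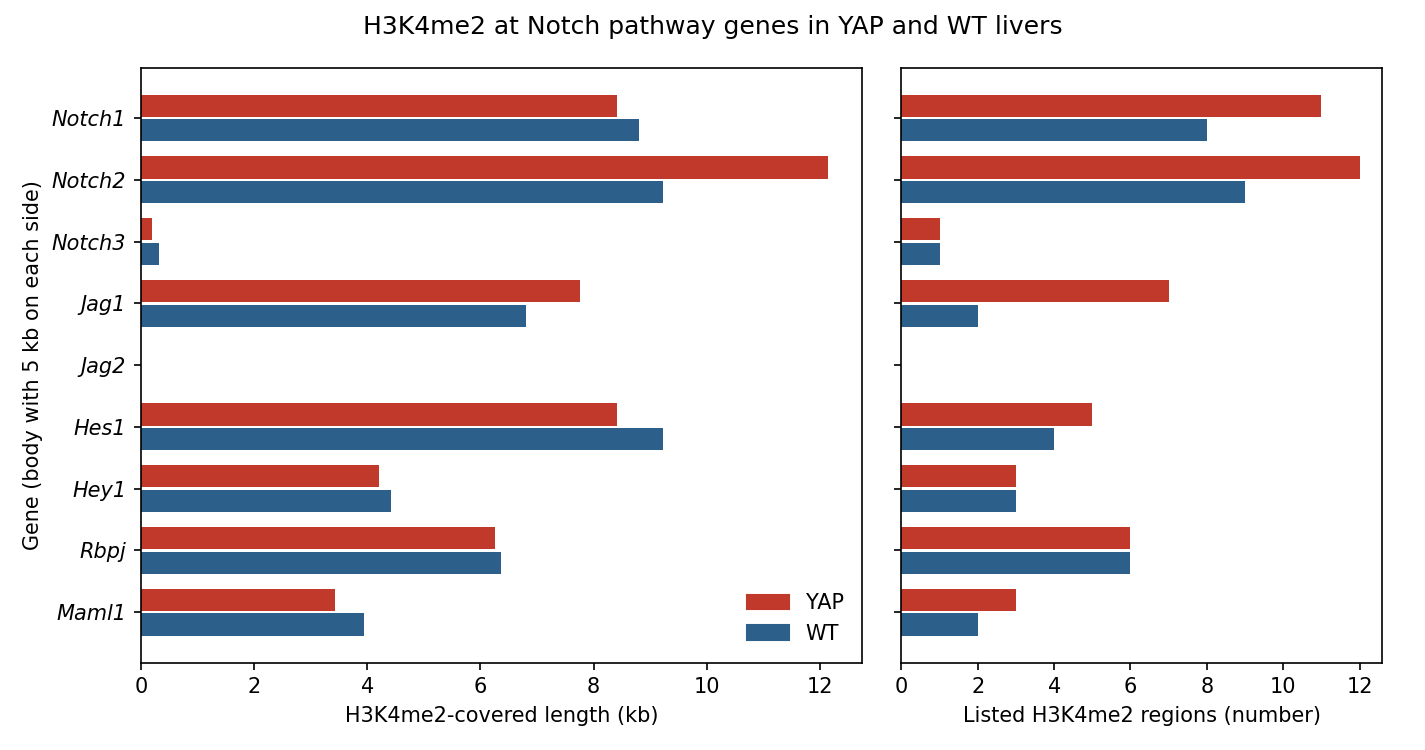
H3K4me2 at the 9 genes, with YAP in red above WT in blue: length covered in kb on the left and number of listed regions on the right, each over the gene body with 5 kb on each side, 1 list per genotype and therefore no error bars. Notch2 (12.1 kb in YAP, 9.23 kb in WT) and Jag1 (7.76 kb in YAP, 6.81 kb in WT) have the longer bar in YAP, and Jag2 has none.

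Of the receptor genes, Notch2 (chr3:98013538-98150367, transcribed towards higher coordinates) carried all 3 kinds of region. Its LSD1 region, chr3:98017159-98017558, lay 3.62 to 4.02 kb downstream of the start site, inside the gene body. The authors gave it a score of 851, and 60.7% of the LSD1 regions in the YAP list scored lower. All 400 of its bases lay on H3K4me2 in YAP, and all 400 also lay on H3K4me2 in WT, where no LSD1 region was listed nearer than 245 kb to the gene. LSD1 at Notch2 in YAP therefore stood on a stretch that was listed for H3K4me2 in both genotypes.

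The H3K4me2 lists placed 12 regions at Notch2 for YAP and 9 for WT. Of these, 8 in YAP and 8 in WT overlapped a region of the other genotype. With regions no more than 5 kb apart taken as a cluster, a limit chosen after the positions were seen, they fell into 3 clusters present in both genotypes and a single WT region. The cluster at the start site (-1.11 to 5.5 kb) covered 5716 bases in YAP and 4997 in WT. The next cluster, 10.7 to 14.9 kb downstream, covered 3108 bases in YAP and 1001 in WT. The third, 28.8 to 33.0 kb downstream, covered 3318 bases in YAP and 2984 in WT.

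The second cluster thus held most of the difference at Notch2. It includes the highest-scoring Notch2 region found in only one genotype, chr3:98026212-98027151 in YAP, with a score of 83. The first part of the cluster lies in Gm40103, a long noncoding RNA annotated inside the Notch2 body, which had 1658 H3K4me2 bases in YAP and 1001 in WT. The single WT region without a YAP partner (chr3:98105334-98105585, score 28) lay 91.8 kb downstream of the start site and was among the lowest scores of its list, with 1.33% of regions below it.

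H3K4me1 at Notch2 covered 3.97 kb with 8 regions in YAP and 0.73 kb with 2 regions in WT. None of them shared a base with a region of the other genotype. How often this holds over the whole H3K4me1 lists is not given here, so it is a description of Notch2 only. With regions of the other genotype within 1 kb also accepted, both WT regions and 2 of the YAP regions had a partner. In YAP, 4 of the 8 regions overlapped YAP H3K4me2, and in WT 1 of the 2 overlapped WT H3K4me2. The highest-scoring of them, chr3:98027701-98028467 in YAP, had a score of 65 and lay at the downstream edge of the second H3K4me2 cluster, where 510 of its bases were also on YAP H3K4me2. The remaining YAP regions scored 31 or more, in a list that runs to 115.

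**Figure D2:**
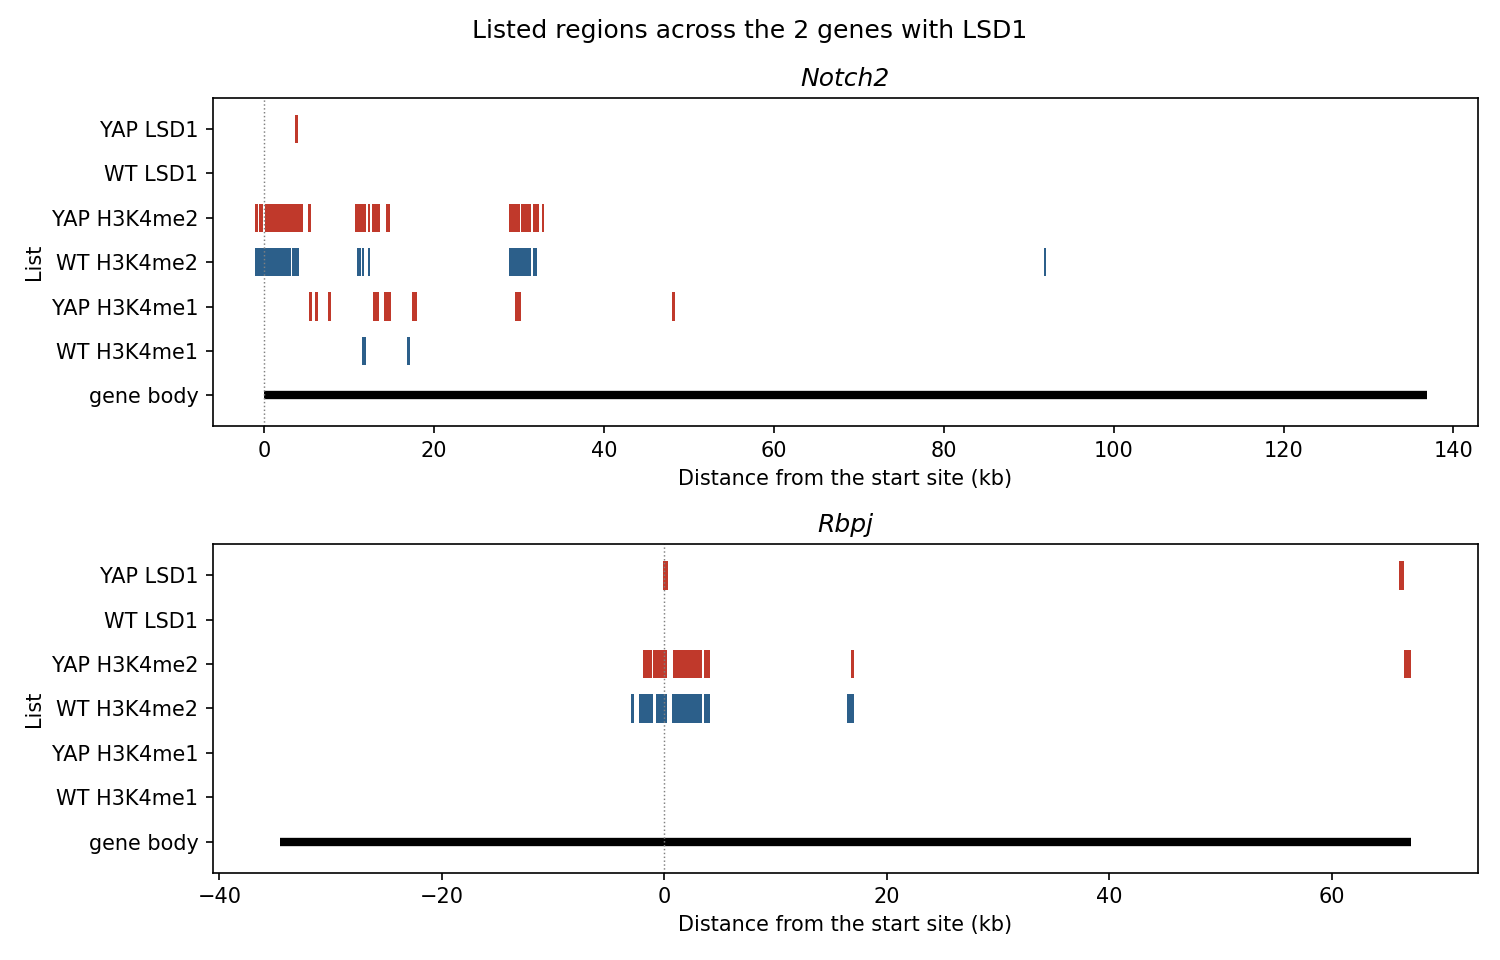
Listed regions of the 6 lists at Notch2 (top) and Rbpj (bottom) against distance from the start site in kb, drawn to scale, with YAP in red above WT in blue for each antibody and the annotated gene body as a black line. LSD1 appears in the YAP rows only, once at Notch2 and at both the start site and the far end of Rbpj, and H3K4me1 at Notch2 has 8 regions in YAP and 2 in WT.

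Notch1 (chr2:26457902-26503822, transcribed towards lower coordinates) had 8.41 kb of H3K4me2 on 11 regions in YAP and 8.80 kb on 8 regions in WT. The YAP list thus had more but shorter regions and slightly fewer covered bases. Most of the length, 78.4% in YAP and 77.0% in WT, lay within 5 kb of the start site. YAP regions without a WT partner numbered 5 and WT regions without a YAP partner numbered 4. The highest-scoring of these, chr2:26458556-26458934 in YAP with a score of 90, lay 44.9 to 45.3 kb downstream of the start site near the other end of the gene, in the overlapping noncoding gene 0610009E02Rik, which had 593 H3K4me2 bases in YAP and 0 in WT within the window. The H3K4me1 list of YAP held 2 regions at Notch1, both absent from the WT list. The higher-scoring one, chr2:26454405-26454868, had a score of 47. It lay in the flank beyond the Notch1 body, within 0610009E02Rik. The other lay inside the Notch1 body and overlapped by 118 bases an H3K4me2 region listed in WT only.

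Notch3 (chr17:32120820-32166896), a receptor gene best known from smooth muscle and other mural cells, had almost no mark. A single H3K4me2 region 23.1 to 23.5 kb downstream of the start site covered 205 bases in YAP and 324 in WT, and no H3K4me2 was listed within 2 kb of the start site in either genotype.

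The receptor start sites showed a difference in how the H3K4me2 regions were divided. At Notch1, 1 WT region of 5555 bases (chr2:26499832-26505386) ran across the start site, whereas in YAP the list had a gap of 86 bases there, between a region of 3854 bases and one of 1107. At Notch2, 1 WT region of 4201 bases ran across the start site and YAP had a gap of 186 bases, between regions of 466 and 4565 bases. Within 2 kb of the start site the covered lengths stood close, with 3441 bases in YAP and 3565 in WT at Notch1, and 2800 in YAP and 3050 in WT at Notch2. The start site was covered in WT and not in YAP at 2 of the 7 members with a start site in the promoter table, and in YAP and not in WT at 0 of 7. Both genotypes covered it at Jag1 and Rbpj, 2 of 7. Of 17492 protein-coding genes with a start site in that table, 5.66% had H3K4me2 on it in WT only, 4.14% in YAP only and 19.3% in both. Hes1 and Hey1 are not in that table, and at the lower boundary of Hes1 the division ran the other way, as given below. The gaps of 86 and 186 bases close when regions of a list within 1 kb are joined.

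The 250 bases before the Notch2 and Notch1 start sites are shown because they hold the upstream part of each gap. The gap bases in them are in capitals (126 of 186 at Notch2, 61 of 86 at Notch1). The rest of each gap lies from the start site on and is not shown. The sequences are from RefSeq on GRCm38.p6 and read 5′ to 3′ in the direction of transcription. They are chr3:98013288-98013537 on the plus strand for Notch2 and chr2:26503823-26504072 on the minus strand for Notch1.
Notch2: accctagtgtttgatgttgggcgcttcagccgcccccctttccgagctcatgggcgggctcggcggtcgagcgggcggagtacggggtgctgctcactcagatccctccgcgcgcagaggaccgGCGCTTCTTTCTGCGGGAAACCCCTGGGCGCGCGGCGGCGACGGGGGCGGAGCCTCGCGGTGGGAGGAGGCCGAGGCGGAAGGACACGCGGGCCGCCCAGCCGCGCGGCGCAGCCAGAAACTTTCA
Notch1: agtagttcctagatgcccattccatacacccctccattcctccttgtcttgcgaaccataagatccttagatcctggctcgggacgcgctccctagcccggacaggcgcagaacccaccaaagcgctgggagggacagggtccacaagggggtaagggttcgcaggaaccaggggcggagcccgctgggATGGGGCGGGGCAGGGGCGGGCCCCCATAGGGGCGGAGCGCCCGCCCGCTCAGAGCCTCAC
G and C made up 72.0% of the Notch2 and 66.0% of the Notch1 stretch. The letters TGGGAA and the longer GTGGGAA, which contains it (RBPJ), CATTCC (TEAD, the DNA-binding partner of YAP), and CACGTG with the wider CACGNG that includes it (HES and HEY) were searched on both strands in the 300-base window from 250 bases before the start site to 50 from it on. Notch1 had CATTCC at -233 and -216, counted from the start site to the first base of the match, both outside the gap. CATTCC occurs in 14.7% of 32817 promoter windows. Notch2 had 1 match, CACGNG at -42, inside the gap, and these letters occur in 27.5% of the windows.

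**Figure D3:**
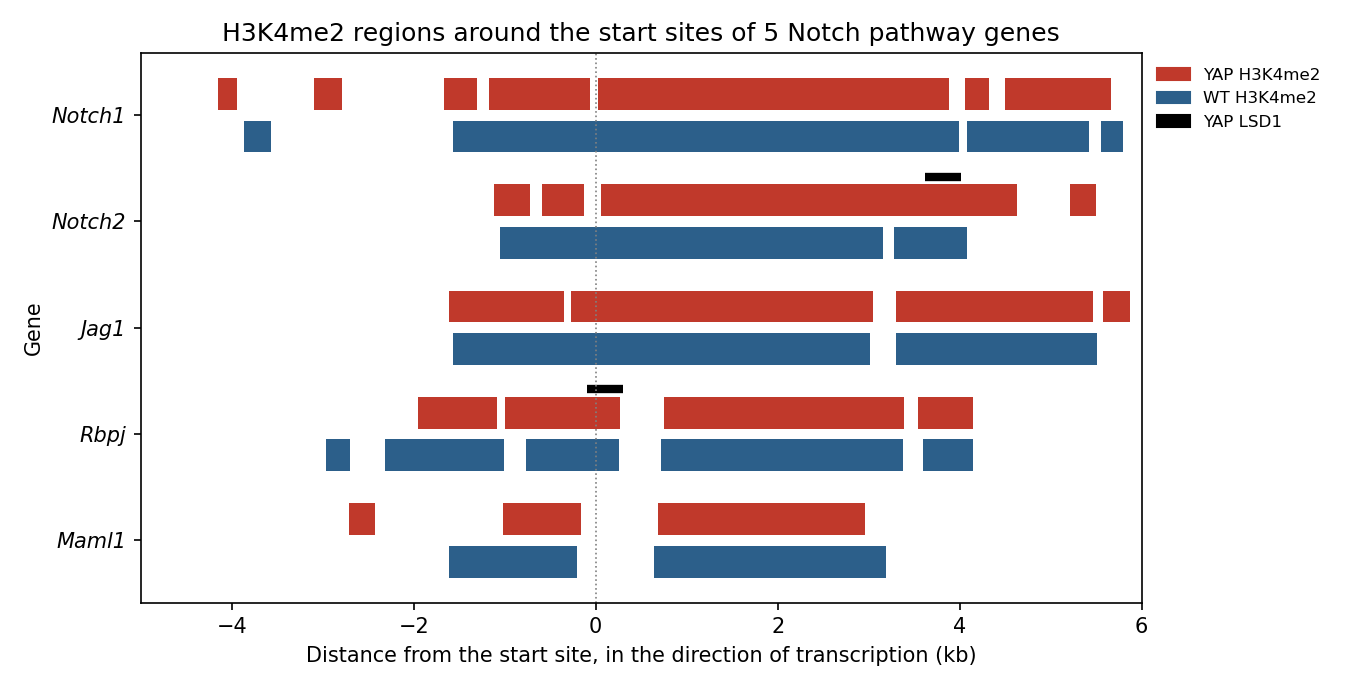
H3K4me2 regions of YAP (red) above WT (blue) against distance from the start site in kb, in the direction of transcription, for 5 members; black bars are YAP LSD1 regions. At Notch1 and Notch2 the WT region runs across the start site and YAP has gaps of 86 and 186 bases there, and at Maml1 both genotypes have a gap.

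Of the ligand genes, Jag1 (chr2:137081451-137116520, transcribed towards lower coordinates), the Jagged ligand whose human mutations cause the bile duct disorder Alagille syndrome, had 7.76 kb of H3K4me2 on 7 regions in YAP and 6.81 kb on 2 regions in WT. All of it formed 1 cluster, from -1.61 to 7.45 kb of the start site. The WT regions both had YAP partners, and the common length was 6679 bases. YAP had 4 further regions, each 185 to 298 bases long, 5.57 to 7.45 kb downstream of the start site. The highest score among these, 45, was shared by chr2:137109932-137110116 and chr2:137110649-137110946, and 16.4% of the YAP list scored lower. The surplus of YAP regions at Jag1 thus consisted of short regions of low score beside a longer shared one, together with a split of the shared one near the start site.

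Jag1 also had 2 H3K4me1 regions in YAP and 0 in WT. The higher-scoring, chr2:137111602-137112283 with a score of 47, lay wholly on H3K4me2 that was listed in both genotypes. Jag2 (chr12:112907803-112929812), the other Jagged ligand gene, had no region of any kind in either genotype.

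Rbpj (chr5:53555779-53657445, transcribed towards higher coordinates) encodes the DNA-binding protein through which all Notch receptors act. It had 2 LSD1 regions in YAP and 0 in WT. The first, chr5:53590251-53590650 with a score of 674, ran from -0.095 to 0.304 kb of the start site at 53590346. The second, chr5:53656408-53656807, lay 66.1 to 66.5 kb downstream, near the far end of the gene. Its score of 1000 is the top of the scale, and 74.4% of the YAP list scored lower, against 33.2% for the first. The first overlapped H3K4me2 by 360 bases in YAP and by 350 in WT. The second overlapped no H3K4me2 in either genotype. It ended 75 bp from an H3K4me2 region listed in YAP only (chr5:53656882-53657452, score 98), which is the highest-scoring H3K4me2 region of Rbpj found in one genotype, while the nearest WT H3K4me2 region was 49042 bp away.

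With that region included, H3K4me2 at Rbpj covered 6.26 kb on 6 regions in YAP and 6.36 kb on 6 regions in WT, and 5 regions of each had a partner in the other genotype. The cluster around the start site, from -2.96 to 4.15 kb, covered 5379 bases in YAP and 5794 in WT. A smaller one at 16.5 to 17.1 kb covered 307 bases in YAP and 570 in WT. Apart from the YAP-only region, both stretches were thus shorter in YAP. No H3K4me2 was listed near the annotated lower boundary of the gene at 53555779. There was no H3K4me1 region at Rbpj in either genotype.

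The 250 bases before the Rbpj start site (chr5:53590096-53590345, plus strand, RefSeq on GRCm38.p6) are shown because the first LSD1 region begins in them; its 95 bases there are in capitals.
Rbpj: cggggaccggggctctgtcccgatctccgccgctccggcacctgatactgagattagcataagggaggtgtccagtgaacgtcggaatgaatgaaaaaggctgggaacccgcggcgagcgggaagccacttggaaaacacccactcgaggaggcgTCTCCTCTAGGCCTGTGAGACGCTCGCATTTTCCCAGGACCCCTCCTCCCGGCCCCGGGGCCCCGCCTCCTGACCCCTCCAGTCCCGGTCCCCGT
G and C made up 65.2% of this stretch. TGGGAA was found at -149 and -65, the second in the part under LSD1, and occurs in 25.6% of the 32817 windows. CATTCC was found at -167, outside that part. GTGGGAA and CACGNG were not found in this window.

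Maml1 (chr11:50255634-50293131, transcribed towards lower coordinates), the gene of a Mastermind co-activator, had 3.42 kb of H3K4me2 on 3 regions in YAP and 3.94 kb on 2 regions in WT, all within 5 kb of the start site. Its start site in the promoter table, at 50292336, lay inside the annotated body, in a gap of 845 bases in YAP and 856 in WT. The annotated end of the body at 50293131 was covered by H3K4me2 in both genotypes. The single region without a partner, chr11:50294761-50295048 in YAP with a score of 47, lay in the neighbouring gene Canx, which encodes the chaperone calnexin. Maml1 had neither LSD1 nor H3K4me1 in either genotype.

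The target genes Hes1 and Hey1, which encode transcriptional repressors, were the members most densely covered with H3K4me2. Hes1 (chr16:30065357-30067796) had 8.41 kb on 5 regions in YAP and 9.23 kb on 4 regions in WT, which filled 67.6% of its window in YAP and 74.2% in WT. Here the division at the lower boundary of the gene ran opposite to that at the receptors. In YAP 1 region of 5962 bases (chr16:30064389-30070350) ran across it, whereas WT had separate regions of 2884 and 5006 bases. The highest-scoring region without a partner was chr16:30061084-30061883 in WT, with a score of 51. The noncoding gene Gm32998, which begins just beyond Hes1, held 2488 of the covered bases in YAP and 2508 in WT.

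Hey1 (chr3:8663359-8667038) had 4.21 kb on 3 regions in YAP and 4.42 kb on 3 regions in WT, and every region had a partner in the other genotype. Its window overlaps the predicted protein-coding gene LOC115489673, in which 2081 of the covered bases lay in YAP and 2013 in WT. Neither Hes1 nor Hey1 had LSD1 or H3K4me1 in either genotype.

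Set by the share of the window that H3K4me2 covered in YAP, the members ran from Hes1 (67.6%) over Hey1 (30.8%), Jag1 (17.2%), Notch1 (15.0%), Notch2 (8.27%), Maml1 (7.20%) and Rbpj (5.60%) to Notch3 (0.366%) and Jag2 (0). In WT the order was Hes1 (74.2%), Hey1 (32.3%), Notch1 (15.7%), Jag1 (15.1%), Maml1 (8.30%), Notch2 (6.29%), Rbpj (5.70%), Notch3 (0.578%) and Jag2. Only Jag1 with Notch1, and Notch2 with Maml1, changed places, and whether neighbours in this order differ cannot be judged without replicates. The windows of Hes1 and Hey1 are short, so their flanks make up most of them.

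Covered bases were compared as log2 of YAP over WT with 500 bases added to both, and a difference past 1.5-fold was counted. Of the 8 members with H3K4me2, 0 passed 1.5-fold. At Notch3, with 205 bases in YAP and 324 in WT, this rests on the added bases. Its ratio of YAP over WT without them was 0.633, and its log2 ratio with 100 bases added was -0.48. Among all 14915 genes with any covered base, 7.68% passed it with more in YAP and 7.25% with fewer in YAP. By any amount, 40.8% of these genes had more in YAP and 59.1% fewer, and of the 8 members 2 had more and 6 fewer. The log2 ratio was 0.38 at Notch2 and 0.18 at Jag1, the members with more in YAP. It was -0.02 at Rbpj, -0.06 at Notch1, -0.06 at Hey1, -0.13 at Hes1, -0.18 at Maml1 and -0.23 at Notch3. The median over these 8 was -0.06, and over all 14915 genes it was also -0.06. The signs at Rbpj and Notch1 turned when that median was subtracted, to 0.04 and 0.00042. Among the higher-scoring 50% of each list the signs at Notch1, Notch3 and Rbpj turned as well, while Notch2 (0.38) and Jag1 (0.51) kept theirs.

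**Figure D4:**
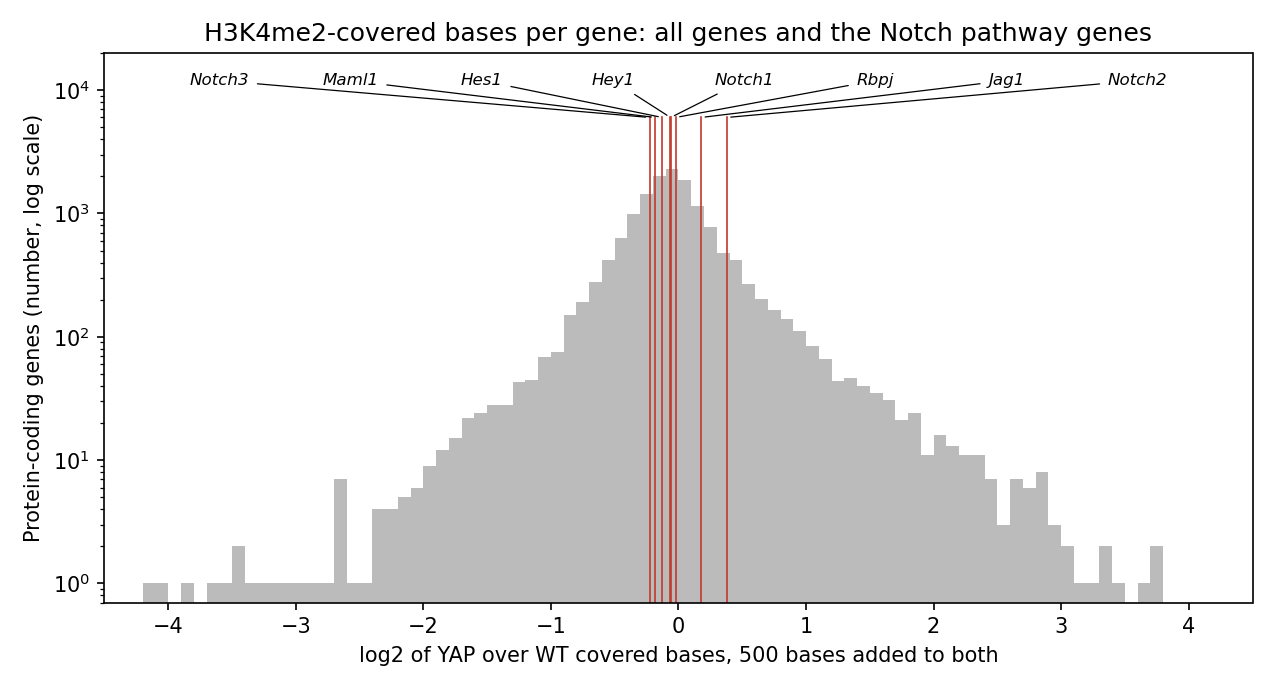
Number of protein-coding genes (log scale) by log2 of YAP over WT H3K4me2-covered bases, with 500 bases added to both, for the 14915 genes with covered bases (grey); red lines mark 8 members. The members lie between -0.23 (Notch3) and 0.38 (Notch2), around the median of all genes at -0.06.

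By number of H3K4me2 regions the members had 48 in YAP and 35 in WT. More regions in YAP were listed at Notch1, Notch2, Jag1, Hes1 and Maml1, which is 5 of the 8, and fewer at 0 of 8. Among all 14915 genes 33.1% had more regions in YAP and 39.0% had fewer. The YAP regions without a WT partner numbered 16, were 185 to 940 bases long and scored 31 to 98. The WT regions without a YAP partner numbered 7, were 252 to 800 bases long and scored 28 to 64. The share without a partner over the whole lists is not given here, so these counts do not set the members apart from other genes. With regions of a list within 1 kb joined, the members had 18 regions in YAP and 16 in WT.

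LSD1 in YAP only, seen at 2 of the 9 members, was seen at 8.08% of 21887 protein-coding genes, LSD1 in WT only at 2.86% and LSD1 in both at 3.05%. Notch2 and Rbpj are the 2 members with a window of over 100 kb, and of the 2759 genes with such a window 13.3% had LSD1 in YAP only, against 7.32% of the genes with shorter windows. The part of gene length in the count was not tested further. Both genes remained the YAP-only members with no flanks, with 20 kb flanks, with LSD1 lists of equal length and among the higher-scoring 50% of each list. These alternatives were counted per gene, so they do not show that both LSD1 regions of Rbpj were kept. Of the YAP list, 33.2% scored lower than its start-site region and 74.4% lower than its far-end region. At least 2 LSD1 regions in YAP, as at Rbpj, were listed at 1.31% of all genes, whatever their window length. The limit of 2 was set by Rbpj itself, so this share is a description only. At the 7 members without LSD1 the nearest YAP region lay 28.9 kb (Hes1) to 1050.0 kb (Hey1) from the gene body.

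More H3K4me1 regions in YAP, seen at 3 of the 9 members, were seen at 6.89% of all genes and at 17.2% of those with a window of over 100 kb, and fewer in YAP at 5.60% of all. A surplus of 6 or more YAP regions, the difference at Notch2, was found at 48 genes, 0.219% of all. That limit was set by Notch2 itself, so its place among these genes is a description only. Among the higher-scoring 50% of each H3K4me1 list the members had 7 regions in YAP and 1 in WT.

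The genes nearest to Notch2 in covered bases over all 6 lists, by Euclidean distance of log2 values with 500 bases added, were Asap1 (0.559), Fkbp5 (0.66) and Ppp3ca (0.74). Each had 400 LSD1 bases in YAP and 0 in WT. The LSD1, H3K4me2 and H3K4me1 values were all part of the distance, so likeness in them follows from the choice. Asap1, a regulator of the small GTPase ARF, had 8738 H3K4me2 bases in YAP and 8155 in WT and 4871 H3K4me1 bases in YAP and 813 in WT. H3K4me2 went the other way at Fkbp5, with 10564 bases in YAP and 12690 in WT. Ppp3ca had 9314 in YAP and 7534 in WT. H3K4me1 covered 3085 bases in YAP and 482 in WT at Fkbp5, and 2511 in YAP and 638 in WT at Ppp3ca. Nearest to Rbpj were Nfkbil1 (0.0687), H1f1 (0.0838) and Sipa1l1 (0.115). By the same choice, each had 800 LSD1 bases in YAP, 0 in WT and no H3K4me1.

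The wider pathway was read from a list of 48 further genes. H3K4me2 was listed at 45 of them, with a median log2 ratio of 0.0040, and 5 had more in YAP past 1.5-fold and 0 had fewer, beside 7.68% of all genes with more and 7.25% with fewer. With so few genes, these counts, and those by group, are read as a description only. Neurl1b, a ubiquitin ligase that acts on Notch ligands, had 4.08 kb in YAP and 1.27 kb in WT (log2 1.37). The fringe glycosyltransferases, which set the ligand preference of Notch receptors, included Lfng with 2.52 kb in YAP and 0.718 kb in WT (1.31) and Mfng with 1.20 kb in YAP and 0.232 kb in WT (1.21), while Rfng had 2.92 kb in YAP and 2.73 kb in WT. Numbl, a relative of the Notch antagonist Numb, had 2.84 kb in YAP and 1.54 kb in WT (0.72). The fifth, the gamma-secretase subunit gene Aph1b, had 5.53 kb in YAP and 3.25 kb in WT (0.68). Rfng and Aph1b are named here after their values were seen. The smallest ratios were at Numb (-0.42), Crebbp (-0.41) and Heyl (-0.39).

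By group, 0 of 2 ligand genes with H3K4me2, 0 of 12 nuclear co-factors and 0 of 7 target genes passed 1.5-fold in either direction, and neither did the endothelial receptor gene Notch4. Among 10 genes of ligand endocytosis and receptor turnover 2 passed with more in YAP, among 8 cleavage genes 1, and among 5 genes of sugar modification 2. LSD1 was listed in YAP only at 4 of the 48, near the 8.08% of all genes. These were Numbl, the presenilin gene Psen2, the glucosyltransferase gene Poglut1 and Lfng. Of these, Numbl (chr7:27255761-27256160) and Lfng (chr5:140617735-140618134) had it where no H3K4me2 was listed in either genotype. The acetyltransferase gene Crebbp had LSD1 in WT only, and Kat2a, Kat2b and Hes7 were among those with it in both. H3K4me1 numbered 25 regions in YAP and 28 in WT over the 48 genes.

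Cell type markers differed in the same lists. Of 5 hepatocyte markers, Alb, Apoa1, Ttr and Cps1 had H3K4me2 in both genotypes and Cyp2e1 in WT only, and the list summed to 27.7 kb in YAP and 50.1 kb in WT. The 7 biliary and progenitor markers, cells in which Notch signalling is known, summed to 20.03 kb in YAP and 16.3 kb in WT, 1 of 5 with H3K4me2 passed 1.5-fold with more in YAP (Spp1, 3.75 kb in YAP and 0.619 kb in WT), and Krt7 and Krt19 were at 0 in both. Of the 7 endothelial markers, 4 had more in YAP and 2 fewer, among them Stab2 with 4.71 kb in YAP and 2.16 kb in WT. Their sum of 8.89 kb in YAP and 12.0 kb in WT took its direction from Eng, with 1.62 kb in YAP and 6.81 kb in WT. Lyve1 was at 0 in both, Tek at 0 in YAP only, and Pecam1 and Cdh5 at 0 in WT only. The 5 macrophage markers summed to 13.3 kb in YAP and 5.15 kb in WT, with Adgre1, Clec4f and Csf1r at 0 in WT. The 5 stellate markers summed to 2.15 kb in YAP and 6.97 kb in WT, with Des and Pdgfrb at 0 in both and Acta2 at 0 in YAP. Most of that sum was Reln, with 1.52 kb in YAP and 6.38 kb in WT, while Lrat had 0.629 kb in YAP and 0.406 kb in WT. Of the lymphocyte markers Ptprc had 2.70 kb in YAP and 0 in WT and Cd3e was at 0 in both. The part of these cell types in the differences at Notch2, Rbpj and Jag1 was not tested.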

How the data were processed

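Chromatin immunoprecipitation sequencing was made from 12 antibody libraries and 2 input libraries of mouse liver; chromatin was digested with micrococcal nuclease, per the labels' protocols. Per the submitters' processing notes, reads were placed on mm10, and BWA, Trimmomatic 0.39, Picard 1.126, SAMtools 1.7, deepTools 3.3.0 and bedtools 2.26.0 are named without their roles. Which program called the regions, at what threshold and with which input, is not given in the sources used here. The labels name the same list for the replicates of a genotype and antibody, so p-values and leave-one-out values were not possible. The score, the signal and, for the histone marks, the −log10 p-values and q-values per region were deposited by the authors with no stated definition. For the histone marks the score ran from 20 to 654 and for LSD1 from 540 to 1000. Score and signal were used to rank regions within a list, and the p-value and q-value columns were not used.

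Overlapping or touching regions of a list were merged. An overlap of 1 bp counted. Gene bodies, start sites and sequences came from RefSeq tables of GRCm38.p6, which has mm10 coordinates; the tables give no exons, so exons and introns were not told apart. Of the 9 genes, all were in the gene table and 7 in the promoter table (not Hes1 and Hey1). Where several start sites were listed in the promoter table, the most upstream was used. At Rbpj, Maml1, Jag2 and Notch3 it lay inside the annotated body and not at its end. Named are all 9 genes; of the other pathway genes those with LSD1 in 1 genotype and the 3 largest and 3 smallest log2 ratios; all LSD1 regions; and the highest-scoring region found in 1 genotype only per gene and mark; genes inside a member's window at a described region; and the 3 genes nearest in covered bases to a member with LSD1. Some genes of the lists are not reported here. The members, gene lists and alternatives were chosen with earlier results of these data known. Overlaps and coverage were checked against bedtools 2.31.1 on simulated regions. Python 3.11.15, pandas 2.3.3, numpy 2.4.6 and matplotlib 3.10.9 were used.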

Additional observations from a re-analysis of the deposited data

How the results depend on the processing

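No paired analysis was possible because each list combines both replicates, and for the same reason no replicate could be left out. LSD1 in YAP only at 2 members and in WT only at 0 held in the 4 alternatives run, and 0 members past 1.5-fold for H3K4me2 held in all alternatives except 20 kb flanks, where 1 member (Jag2) passed. Members with more H3K4me2 in YAP numbered 5 and those with fewer 3 among the higher-scoring 50% of each list, where log2 ratios turned to 0.21 at Notch1, 0.50 at Notch3 and 0.17 at Rbpj. They numbered 4 with more in YAP after the median of all genes was subtracted, where Notch1 turned to 0.00042 and Rbpj to 0.039, and Hes1 turned to 0.0039 without flanks. With regions within 1 kb joined, H3K4me2 regions numbered 18 in YAP and 16 in WT, of which 13 in YAP and 13 in WT had a partner. H3K4me1 regions numbered 7 in YAP and 1 in WT among the higher-scoring 50%, and 2 in YAP and 2 in WT had a partner within 1 kb, an alternative chosen after seeing the data. The causes were not tested. Depth per library is unknown, so an absent region may be one below the authors' threshold.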
